A study of Homo sapiens with 18 samples.

Results

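The Ewing sarcoma cell lines A673 and TC-71 were compared at baseline, in 3 RNA-seq libraries of each line, all transfected with the control siRNA siNeg. These 6 libraries are all siNeg libraries of both lines among the 18 libraries of the series, and they were chosen by their labelled line and siRNA, with no measured value used. The series asks how the fusion protein EWSR1::FLI1 regulates ETS1, and its other libraries are TC-32 with siNeg and all 3 lines with siFLI1, an siRNA against FLI1. Every library, controls included, came from cells reverse transfected with 20 nM siRNA in Lipofectamine RNAiMax, so no untransfected cells enter the comparison. The column names of TC-71 give 48 h after transfection, and those of A673 name no time.

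Ewing sarcoma is a bone and soft tissue tumour of children and young adults. It is driven by a fusion of the RNA-binding protein EWSR1 with an ETS transcription factor, most often FLI1. The fusion binds GGAA repeats and turns them into enhancers, and it also holds down genes of mesenchymal cells, so that tumour cells keep a primitive state with neural and mesenchymal traits. Both lines carry EWSR1::FLI1. A673 is also known to carry an activating BRAF mutation, and both lines are known to lack normal p53. Each line stands here for 1 tumour, so a difference between them is a difference between a pair of lines and not between classes of tumour.

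The lines differ in more than their origin. A673 was grown in DMEM and TC-71 in RPMI 1640, and the A673 values are expected counts from a table named for RSEM, which shares reads between overlapping genes and copies, whereas the TC-71 values are whole counts from a table named for Subread. The A673 libraries summed to between 114564479 and 117548766 counts and the TC-71 libraries to between 19685354 and 28491374. Line, medium, counter, depth and any sequencing run cannot be told apart in this design. The text therefore keeps to differences of at least 4-fold, called by edgeR's quasi-likelihood test at an adjusted p below 0.05, and gives the share of exon bases that a gene shares with other genes wherever it reaches 10%. Genes on X and Y were left out. Values are CPM, counts per 1000000 of the library total after scaling by the trimmed mean of M-values (TMM), and log2 fold changes are A673 minus TC-71, so that a positive value is higher in A673. Nothing in the labels says that the replicates were separate cultures, so the p-values measure the spread between these libraries, which may be technical.

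Of 18530 genes tested, 89.1% differed between the lines by edgeR's test and 30.9% differed by at least 4-fold. The large differences split into 12.3% of all genes with the higher level in A673 and 18.5% with the higher level in TC-71. The libraries of the lines did not overlap for 89.2% of all genes tested. Long noncoding genes leaned to TC-71: 1115 of 2929 were at least 4-fold higher in TC-71 and 306 in A673. Among 13880 protein-coding genes, 1789 (12.9%) were higher in A673 and 1628 (11.7%) in TC-71. Most members of the gene lists below are coding genes, whereas the 30.9% over all genes also takes in the noncoding genes. The counter moved with these shares: of 611 protein-coding genes that share 50% or more of their exon bases, 287 were higher in A673 and 55 in TC-71, whereas of 6521 with no shared base the counts were 734 and 904.

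A stricter set was used to describe the lines, made of 7880 protein-coding genes with a mean of at least 10 CPM in the higher line and under 10% of exon bases shared. In it, 91.9% of genes were called, and 1010 (12.8%) differed by at least 4-fold, 546 higher in A673 (6.93%) and 464 higher in TC-71 (5.89%). The libraries of the lines did not overlap for any of the 1010, against 91.7% of all genes in the set. At 64-fold or more, 119 were higher in A673 and 86 in TC-71. With scaling by library size alone, 43.1% of the large differences in this set were higher in A673, against 54.1% with TMM, and the median of all genes moved by -0.32 on the log2 scale. The share was 49.5% with all libraries thinned to equal depth, and 44.3% when only genes with whole expected counts and no shared exon base were fitted. Which line has more of the large differences therefore depends on the processing.

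**Figure D1:**
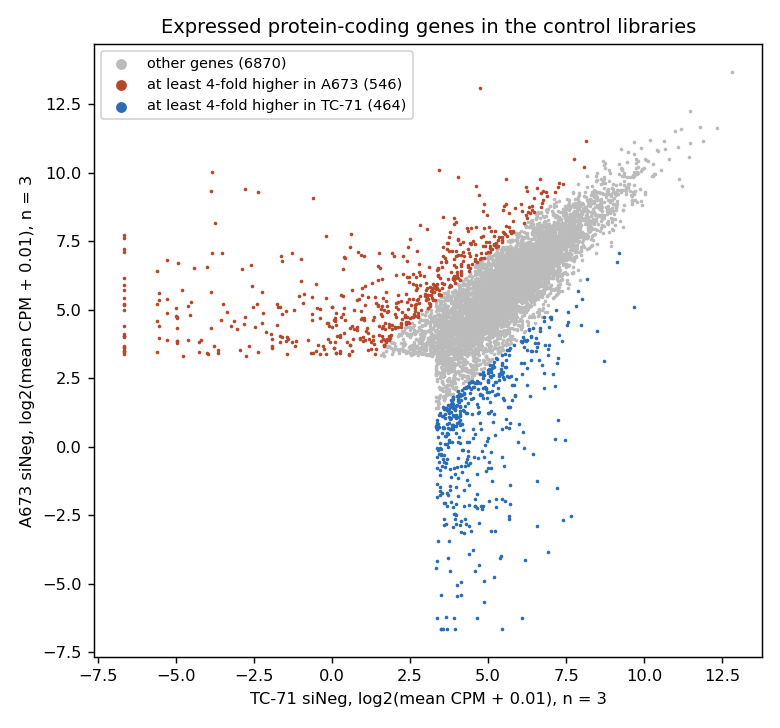
Mean level of 7880 expressed protein-coding genes in TC-71 siNeg (x axis) and A673 siNeg (y axis), both as log2(mean CPM + 0.01), 1 point per gene and 3 libraries per mean. Coloured points are the 546 genes at least 4-fold higher in A673 and the 464 at least 4-fold higher in TC-71, and a band of genes along the left edge was near 0 in TC-71.

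Genes were ranked by the ratio of mean CPM in the stricter set, with the lower line raised to 3 counts per library where it lay under that, so a gene near 0 ranks by its level in the other line. By this ratio the genes higher in A673 were led by extracellular matrix genes. COL1A2, which encodes the alpha 2 chain of type I collagen, stood at 1057, 1009 and 1044 CPM in the A673 libraries and had 2, 1 and 2 reads in the TC-71 libraries. Its log2 fold change was 14.01 (SE 0.0898, edgeR adjusted p = 5.69e-47). COL1A1, which encodes the partner chain, stood at 58.5, 56.5 and 57.1 CPM in A673 and at 73.9, 77.1 and 76.8 CPM in TC-71, a log2 fold change of -0.40 (edgeR adjusted p = 2.11e-11). The A673 libraries thus held much COL1A2 and the TC-71 libraries almost none, while COL1A1 was read in both lines within 4-fold.

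COL4A1 and COL4A2 encode the main chains of type IV collagen, the network of basement membranes. They lie head to head on chromosome 13 in GRCh38, COL4A1 at chr13:110148963-110307157 on the minus strand and COL4A2 at chr13:110305812-110513209 on the plus strand. COL4A1 read 219.7, 211.3 and 209.5 CPM in A673 and had no read in any TC-71 library, so it was at least 1892-fold higher against a floor of 3 counts per library. COL4A2 read 296.2, 285.7 and 285.4 CPM in A673 against 1, 0 and 5 reads in TC-71 (log2 fold change 11.91, SE 0.11, edgeR adjusted p = 6.21e-42). Both genes were thus on in every A673 library and at or near 0 in every TC-71 library.

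The stretch between the RefSeq starts of the pair is shown because both genes start from its ends in RefSeq. The GENCODE model of COL4A2 begins further upstream, inside COL4A1, so the gene models overlap there. The stretch is read from RefSeq on GRCh38.p14, at chr13:110307158-110307283 on the plus strand, and its capitals mark a CCAAT box letter match and a GGGCGG match.
COL4A1-COL4A2: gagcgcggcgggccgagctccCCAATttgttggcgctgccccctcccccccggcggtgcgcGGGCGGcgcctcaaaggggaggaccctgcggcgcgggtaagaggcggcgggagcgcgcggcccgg
Searched on both strands in windows of 126 bases, GGGCGG occurs in 34.6% and CCAAT in 21.1% of 35116 RefSeq promoters. The stretch holds 20 CG pairs, which 5.78% of those windows reach. A letter match is a description and not a bound site.

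Another 3 genes were at 0 reads in all TC-71 libraries. FBN2 (chr5:128257909-128659185, minus strand) encodes fibrillin 2, a microfibril protein of developing tissue, and read 195.4, 196.4 and 197.5 CPM in A673, at least 1741-fold higher. CDH2, the N-cadherin of neural and mesenchymal cells, read 140.2, 138.2 and 136.3 CPM, at least 1225-fold higher. CYYR1 (chr21:26466209-26573286, minus strand), a small membrane protein of unsettled function, read 147.6, 150.1 and 146.8 CPM, at least 1313-fold higher.

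GGAA repeats are the fusion's known binding sites, so the 41 RefSeq promoter windows of 23 of the 30 top genes were searched for GGAAGGAA on either strand in the 250 bases before the start. The matches were 2, in FBN2 and CYYR1, and 3.06% of all 35116 windows hold this motif, so nothing is read from their number. Both are printed 5′ to 3′ along the gene, from GRCh38.p14, with the reverse complement TTCCTTCC in capitals, at chr5:128538246-128538495 and chr21:26573287-26573536 on the minus strand.
FBN2: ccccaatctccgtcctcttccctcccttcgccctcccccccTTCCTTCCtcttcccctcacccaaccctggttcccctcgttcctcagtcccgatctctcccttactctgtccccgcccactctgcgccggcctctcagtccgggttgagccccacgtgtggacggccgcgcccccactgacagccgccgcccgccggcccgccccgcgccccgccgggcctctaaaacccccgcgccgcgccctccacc
CYYR1: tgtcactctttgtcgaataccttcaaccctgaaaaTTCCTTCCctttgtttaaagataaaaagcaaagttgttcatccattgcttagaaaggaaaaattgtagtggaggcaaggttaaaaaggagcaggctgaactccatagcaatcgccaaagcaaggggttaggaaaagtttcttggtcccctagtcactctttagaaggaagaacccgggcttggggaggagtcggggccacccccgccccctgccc

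The other genes of this kind in A673 were of mixed roles. KIF1A, the motor that carries synaptic vesicle precursors along axons, read 660.2, 632.3 and 627.1 CPM against 1, 3 and 0 reads in TC-71 (log2 fold change 13.62). MMP1, the interstitial collagenase, read 696.2, 699.5 and 629.8 CPM against 3, 1 and 8 reads (12.15). TGFBI, a TGF-beta induced matrix protein, read 644.4, 635.1 and 626.8 CPM against 3, 2 and 11 reads (11.65). None of the 3 genes rose above 11 reads in a TC-71 library.

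Transcription factors of the embryo stood among them too. OTX2, which patterns the forebrain, read 133.8, 138 and 133.6 CPM in A673 and 3, 1 and 1 reads in TC-71 (log2 fold change 11.07). SALL1, a zinc finger factor of kidney and limb, read 116.5, 112 and 112.2 CPM against a single read in TC-71, a ratio of 9307 with a counting interval of 1670 to 367600 at 95% confidence. F2RL2, a thrombin-responsive receptor, had a log2 fold change of 11.07, and its 5 TC-71 reads all lay in replicate 2. FREM2, a matrix protein of epithelial basement membranes, had 2 reads in TC-71, a ratio of 4291 (1188 to 35440).

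AKR1C3 and RGPD6 are also among the 15, at log2 fold changes of 9.71 and 10.86, below some fitted values outside the 15 because of the floor in the ranking. AKR1C3, a steroid-reducing enzyme, read 547, 539.1 and 549.1 CPM against 0.41, 0.65 and 0.86 CPM, and it has close paralogs. RGPD6 belongs to a multicopy family whose reads the counters may divide differently, so its value is uncertain. Across the 15 genes the largest edgeR adjusted p was 9.62e-26, and all 15 differed by at least 4-fold in the same direction in the siFLI1 libraries. Of all 546 large differences toward A673 in the stricter set, 350 (64.1%) did so. The 15 were picked for the largest ratios, far above the 4-fold limit, so little is read from their count.

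In TC-71 the genes with the largest ratios included imprinted genes. GRB10 (chr7:50590063-50793462), an imprinted adaptor that dampens insulin receptor signals, read 68.8, 65.7 and 69.9 CPM in TC-71 against 0, 1 and 0 reads in A673. Its ratio was 20610, with a counting interval of 3698 to 814300. PLAGL1, an imprinted zinc finger factor, read 71.1, 74.3 and 74.1 CPM against 3, 5 and 6 reads (log2 fold change -10.56, SE 0.108). Both imprinted genes were near 0 in every A673 library although those libraries were the deeper ones.

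Of the 15 genes, 4 are known from the testis, germ cells or sperm. PRSS21, a serine protease of testis, read 43, 43.3 and 45.5 CPM in TC-71 and 0 in A673, at least 1470-fold higher. CTCFL, the germline paralog of the insulator protein CTCF, read 173.9, 171.6 and 163.8 CPM against 15, 8 and 21 reads (log2 fold change -10.16). PIWIL2, a partner of piRNAs in germ cells, read 37.3, 34.9 and 37 CPM against 0, 0 and 8 reads (-10.32). DNAH2, a dynein heavy chain of cilia and sperm tails, read 188.6, 195 and 223.6 CPM against 9, 22 and 19 reads (-10.24).

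Secreted factors and developmental regulators made up most of the rest. GDF10, a TGF-beta family ligand, read 120.3, 120.4 and 119.2 CPM against 9, 7 and 2 reads in A673 (log2 fold change -10.93). POMC, the precursor of ACTH and melanocortins, read 22.8, 25.5 and 26.8 CPM against 1 read in all, a ratio of 7537 (1351 to 297800). TBX4, a hindlimb and lung factor, had a ratio of 2924 (999.3 to 14190), and GATA4, a factor of heart and endoderm, a log2 fold change of -9.30. FRAS1, a partner of FREM2 in the basement membrane, was higher in TC-71 (-9.42) where FREM2 was higher in A673.

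FAM43B (-10.18), FNDC1 (-9.65), SUSD4 (-9.61) and STMN4 (-9.53) complete the 15. The largest edgeR adjusted p among the 15 was 2.72e-16, and again all 15 differed by at least 4-fold in the same direction with siFLI1. Of all 464 large differences toward TC-71 in the stricter set, 345 (74.4%) did so, and these 15 too were picked for the largest ratios. At the 4-fold limit itself, SULF1, CAV2 and SSBP2 lay just inside with log2 fold changes of 2.00 to 2.01, and FAM126A, SLC24A3 and OLFML2A lay just outside at 2.00 after rounding.

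**Figure D2:**
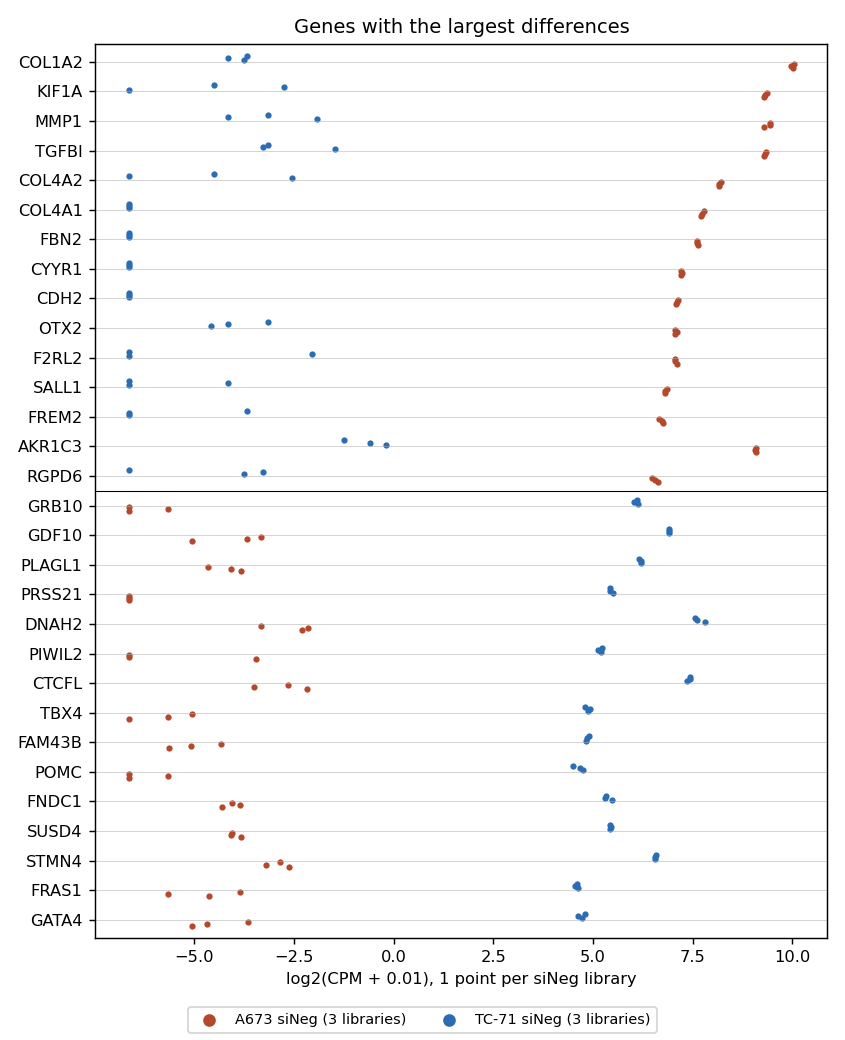
The 15 genes with the largest ratios in each direction, 1 point per siNeg library on an axis of log2(CPM + 0.01), with A673 and TC-71 in different colours and a line between the sets. In every row the 3 points of one line lie far from the 3 points of the other.

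Reads were absent or nearly so in one line for a part of the large differences. Of the 546 genes higher in A673, 67 had at most 3 reads in every TC-71 library, and of the 464 higher in TC-71, 15 had at most 3 reads in every A673 library. Depth moves with this pair of counts, since 3 reads are worth 0.0299 CPM in A673 and 0.113 CPM in TC-71. The 15 genes, chosen here after their values were seen, were ADRA1B, APOD, CA2, EFCAB4B, FOXE1, GRB10, IKZF3, LMX1A, MBD3L5, NDN, POMC, PPP2R2B, PRSS21, SLC24A4 and TBX4. Among them PPP2R2B, a neuronal phosphatase subunit, read 11.2 ± 0.41 CPM (SD, n = 3) in TC-71, and FOXE1, a thyroid factor, 12.5 ± 0.923 CPM (SD, n = 3).

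Of the 67 genes near 0 in TC-71 siNeg, 7 reached a mean of at least 1 CPM in TC-71 with siFLI1. These, also chosen after their values were seen, were ANGPTL2, ANKRD1, COL1A2, MAML2, SPARCL1, SPRY4 and UNC80. ANKRD1, a target of YAP and a muscle stress protein, went from 0 reads to 145.7, 155 and 151.3 CPM, each set scaled within its own 6 libraries. COL1A2 reached 2.92, 2.78 and 3.34 CPM in TC-71 with siFLI1, while its A673 mean with siFLI1 was 4060 CPM.

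The genes that the series is about were checked next. FLI1, whose counts take in reads of the fusion's 3' part, read 91.8, 91.8 and 90.3 CPM in A673 and 47.9, 48.7 and 44.1 CPM in TC-71. The log2 fold change was 0.96 (SE 0.0428, edgeR adjusted p = 1.64e-21), under 4-fold. ETS1, an ETS factor, was low in both lines at 3.53, 4.04 and 3.82 CPM in A673 and 7.35, 8.55 and 7.98 CPM in TC-71 (log2 fold change -1.06, SE 0.0978, edgeR adjusted p = 2.46e-12). In FLI1 the A673 siNeg libraries all lay above those of TC-71, and in ETS1 they all lay below. The ETS1 difference turned with siFLI1, at 145.3, 133.9 and 137.1 CPM in A673 and 17.31, 19.85 and 17.75 CPM in TC-71. Its log2 fold change there was 2.92, and the interaction of line and siRNA was 4.03 (edgeR adjusted p = 1.93e-23).

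EWSR1 stood at 437.3, 420.1 and 421.2 CPM in A673 and at 347.4, 343 and 342.1 CPM in TC-71, a log2 fold change of 0.31 that was -0.01 with scaling by library size alone and -0.11 with length and GC trends removed. TNS3, a focal adhesion protein, was not tested, with 5 to 8 reads in A673 and 0, 0 and 3 in TC-71.

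The known fusion targets were tested as a pair of lists. Of 30 genes known to be activated by the fusion, 8 were at least 4-fold higher in A673 and 3 in TC-71 (36.7%, against 30.9% of all genes), with a median log2 fold change of 0.24 against 0.01 over all genes tested. Among the 22 with under 10% of bases shared, the counts were 4 and 3. PRKCB, a kinase and one of the best known targets, read 313, 325 and 315 CPM in A673 and 343, 345 and 354 CPM in TC-71 (log2 fold change -0.13). CCND1, which encodes cyclin D1 and has 10.4% of its bases shared, NKX2-2, a neural factor with 44% of its exon bases shared, and STEAP1, a surface metalloreductase, gave log2 fold changes of 0.55, 1.21 and -0.53. PRKCB, CCND1, NKX2-2 and STEAP1 were therefore read in both lines and under the 4-fold limit. BCL11B and PPP1R1A, also set as markers of Ewing sarcoma lines, are not given here.

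The activated targets that passed the limit included LIPI, a lipase of the testis, at 122.1, 126.3 and 126.9 CPM in A673 and 3.97, 6.07 and 4.34 CPM in TC-71 (4.74). NPY1R, a receptor of neuropeptide Y with 13.3% of bases shared, read 230.3, 239 and 231.2 CPM against 23.8, 27.7 and 22.8 CPM (3.25). LOXHD1, a gene of the inner ear, was higher in TC-71 (-3.57), as was KCNAB3, a potassium channel subunit (-3.001). RBM11, an RNA-binding protein (3.56), and PAPPA, a protease that frees IGF (3.28, 21% of bases shared), were higher in A673.

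Of 20 fusion-repressed genes tested, 11 were at least 4-fold higher in A673 and 1, IGFBP7, in TC-71 (-2.48, 18.3% of bases shared), and their median was 2.996. Large differences made up 60% of this list, against 30.9% of all genes tested. TNC, which encodes tenascin C, read 972.5, 918.5 and 894.5 CPM in A673 and 17.2, 15.5 and 16.2 CPM in TC-71 (5.83, edgeR adjusted p = 1.17e-43). DKK1, a WNT antagonist, read 5.23, 5.12 and 4.99 CPM against 0, 2 and 0 reads, a ratio of 210 (57.9 to 1732), and 10.2% of its bases are shared. With siFLI1, 9 of the 12 large differences of this list were again at least 4-fold in the same direction, near the share over all genes tested, where 4108 of 5172 large differences (79.4%) were. Among the 15 members with under 10% of bases shared, 8 were large, all higher in A673.

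Mesenchymal genes and EMT factors leaned to A673 in direction as well, with 10 of 30 at least 4-fold higher in A673, none in TC-71, and a median of 1.57. The list's share of large differences, 33.3%, stood against 30.9% of all genes tested. Over all genes, 12.3% were higher in A673 and 18.5% in TC-71. FN1, which encodes fibronectin, read 8822, 8699 and 8779 CPM in A673 and 25.9, 25.4 and 29.4 CPM in TC-71 (log2 fold change 8.34, SE 0.0502, edgeR adjusted p = 1.49e-47). With siFLI1 the lines lay much closer, at 15960, 16870 and 16140 CPM in A673 and 6668, 7062 and 7286 CPM in TC-71 (1.22, SE 0.0391), and the interaction of line and siRNA was -7.08 (edgeR adjusted p = 4.47e-36). CD44, the hyaluronan receptor, had 1 read in TC-71 against 4.37, 4.52 and 3.64 CPM in A673, and NT5E, the surface enzyme CD73, had a log2 fold change of 6.52.

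VIM, the intermediate filament of mesenchymal cells, was high in both lines, with a log2 fold change of 0.73 and 24.6% of its bases shared. ZEB1 and SNAI2, factors that drive EMT, were higher in TC-71 by less than 4-fold (-1.28 and -1.85), and ZEB2 was higher in A673 (1.18). These 4 defining members were named whatever their values.

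Collagen genes split in both directions, 11 higher in A673 and 5 in TC-71 of 31 tested (51.6%, against 30.9% of all genes). Their median was 1.01. Besides COL1A2, COL4A1 and COL4A2, A673 had more COL12A1 (6.18), a fibril-associated chain. TC-71 had more COL19A1 (-7.06), COL24A1 (-5.17), COL9A2 (-4.43) and COL14A1 (-4.19). Of the 16 large collagen differences, 13 were repeated in the same direction with siFLI1, again near 79.4%.

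Adhesion receptors split too. ITGB2, the beta 2 integrin chain of leukocytes, read 424.1, 398 and 428.1 CPM in TC-71 against 9.29, 8.97 and 8.3 CPM in A673 (-5.56, edgeR adjusted p = 1.68e-43). ITGA2, a collagen receptor chain, read 17.3, 16.4 and 19.1 CPM against 0.0399, 0.147 and 0.131 CPM (-7.35). ITGB5, a vitronectin receptor chain, read 262.3, 251.3 and 252.1 CPM in A673 against 21.6, 18.4 and 19.6 CPM in TC-71 (3.68). Over 20 integrin genes tested, 3 were at least 4-fold higher in A673 and 4 in TC-71 (35%, against 30.9% of all genes). Over protein-coding genes the shares were 12.9% toward A673 and 11.7% toward TC-71. Of 13 classical cadherins, 5 and 2 were large (53.85%), with CDH4 and CDH6 beside CDH2 on the A673 side.

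HOX genes, which specify position along the body axis, gave 1 large difference toward A673 and 7 toward TC-71 among 32 tested, with a median of -0.80. In all, 25% of the tested members were large, against 30.9% of all genes tested, and among the 18 members with under 10% of bases shared the counts were 1 and 2. Distal HOXA genes were among the large differences toward TC-71. HOXA13 read 6.12, 5.51 and 5.78 CPM in TC-71 and 0 in A673, at least 194-fold higher, with 1.7% of its exon bases shared. HOXA11 read 17.4, 15.5 and 15.5 CPM and 0 in A673, at least 542-fold higher. HOXA10 read 19.3, 20.2 and 21.3 CPM against 1, 0 and 1 reads, a ratio of 3055 (844 to 25250), and HOXA9 was at least 53.4-fold higher.

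HOXA9, HOXA10 and HOXA11 share 26.3% to 27.2% of their exon bases with neighbours, so their values can depend on the counter. The HOXD cluster differed less: HOXD13 was higher in TC-71 by less than 4-fold (-0.97), HOXD11 in A673 (1.48, 21.4% shared), and HOXD10 gave 0.07 (edgeR adjusted p = 0.0977, 18.2% shared). HOXD4 was higher in A673 at 15.9, 15.2 and 16.8 CPM against 1.27, 1.49 and 0.767 CPM (3.81), and HOXC12 in TC-71 (-3.02). All 8 large HOX differences were at least 4-fold in the same direction with siFLI1, where 79.4% of all large differences were.

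**Figure D3:**
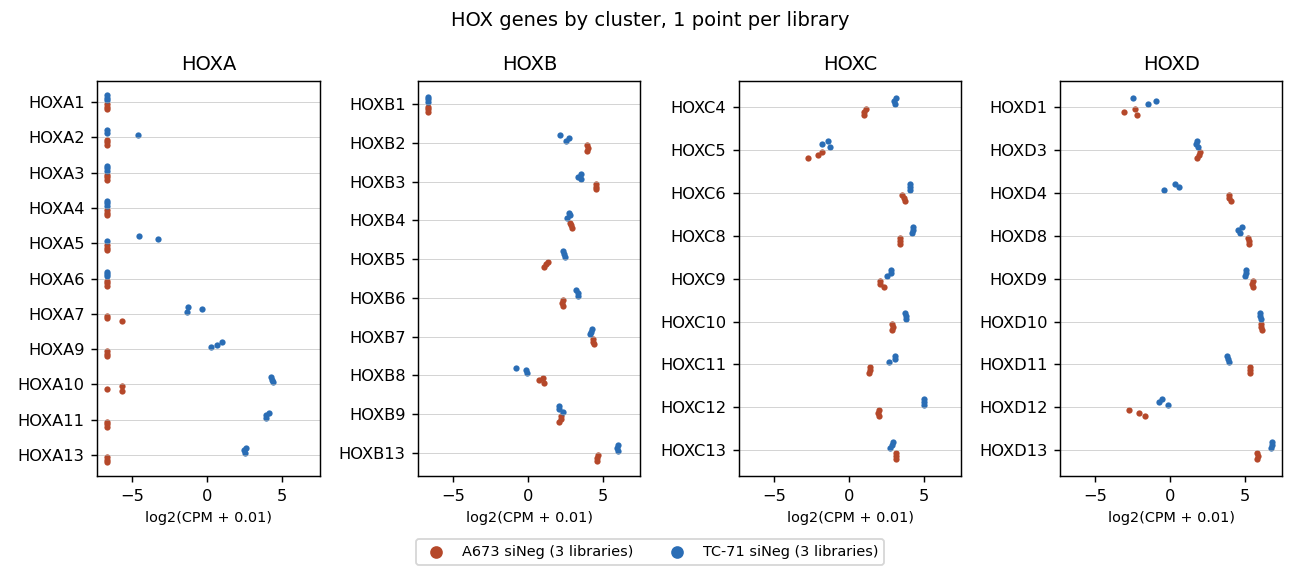
HOX genes by cluster, 1 point per siNeg library on an axis of log2(CPM + 0.01), A673 and TC-71 in different colours. HOXA9, HOXA10, HOXA11 and HOXA13 were read in all 3 TC-71 libraries and at most 1 read was found in any A673 library, while most HOXD genes were read in both lines.

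Lineage transcription factors gave 26 large differences, 11 higher in A673 and 15 in TC-71 of 46 tested (56.5%, against 30.9% of all genes). Their median was -0.69. SOX9, a factor of cartilage and neural crest, read 57, 62.3 and 60.3 CPM in A673 and 0 in TC-71, at least 530-fold higher. SOX11, a factor of immature neurons, read 81.7, 87 and 90.1 CPM against 1 read. NEUROD1 and NEUROG2, which drive neurons, had no read in A673 and were at least 75.3-fold and 36.6-fold higher in TC-71, where they read at most 2.3 CPM. The limb factors TBX3 (-5.19) and PITX1 (-5.01) were higher in TC-71 too.

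Some defining factors of muscle and of the crest were at 0 throughout. MYOD1, MYOG, MYF5 and SOX10 had no read in any of the 6 libraries. PAX7, a factor of muscle stem cells also seen in Ewing sarcoma, read 44.1, 43.2 and 43.7 CPM in A673 and 136, 136 and 147 CPM in TC-71 (-1.68), under the 4-fold limit.

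Neural and neuroendocrine genes gave 10 large differences toward A673 and 3 toward TC-71 of 22 tested (59.1%, against 30.9% of all genes). Their median of 1.85 was 1.58 when members at 0 in one line were set to their floor bound. NPY, a neuropeptide, read 37.2, 36.6 and 37.2 CPM in A673 and 0 in TC-71, at least 328-fold higher. NCAM1, the neural adhesion molecule CD56, read 15, 15.1 and 13.3 CPM against 1, 0 and 1 reads, a ratio of 593 (164 to 4898). Filament genes went both ways, since NEFM (3.90, 26.4% shared) was higher in A673 whereas NEFH, the heavy neurofilament chain, read 804, 811 and 831.4 CPM in TC-71 (-4.57), and MAP2, a microtubule protein of dendrites, was also higher there (-4.01).

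Imprinted genes are expressed from one parental copy. They gave 8 large differences toward A673 and 5 toward TC-71 of 21 tested (61.9%, against 30.9% of all genes). The balance turned among the 15 members with under 10% of bases shared, at 2 and 5. NDN and MAGEL2 are neighbours in the Prader-Willi region of chromosome 15 and are normally expressed from the paternal copy. NDN read 12.4, 12 and 14 CPM in TC-71 and 0 in A673, at least 428-fold higher, and MAGEL2 was at least 37.7-fold higher. SNRPN, in the same region, went the other way at 57.6, 56.7 and 54.6 CPM in A673 and 4.79, 2.9 and 3.26 CPM in TC-71 (3.92), but 43.9% of its exon bases are shared.

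PEG3, a paternally expressed zinc finger gene, read 355.5, 373.8 and 371.5 CPM in A673 and 0 in TC-71, at least 3252-fold higher, and 51% of its bases are shared, ZIM2 lying in the same locus. MEG3, a maternally expressed noncoding gene with 2.58% of its bases shared, read 46.9, 45.2 and 45.3 CPM in A673 and 0.855, 0.467 and 0.894 CPM in TC-71 (5.89). MEST was also higher in A673 (7.49, 27.6% shared). The growth-restraining noncoding gene H19 read 0.513, 0.42 and 0.383 CPM in TC-71 and 0 in A673. Of the 13 large differences in the list, 11 were repeated with siFLI1, against 79.4% over all genes, and copy number and methylation were not measured.

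Genes of ERK feedback and output are switched on by the kinase ERK, and some then damp it. They were at least 4-fold higher in A673 for 13 of 28 and in TC-71 for 3 (57.1%, against 30.9% of all genes). Their median was 1.97. ETV4, an ETS factor downstream of ERK, read 9.31, 9.22 and 8.37 CPM in A673 and 0 in TC-71, at least 79.5-fold higher. SPRY4, an inhibitor of the pathway, read 37, 37.3 and 37.9 CPM against 2, 3 and 1 reads (8.96, SE 0.154, edgeR adjusted p = 1.79e-34). DUSP4, a phosphatase of ERK, read 9.43, 9.78 and 8.5 CPM against 0, 1 and 2 reads, a ratio of 252 (86.3 to 1225).

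DUSP6, the ERK-specific phosphatase, read 179.1, 180.8 and 185.1 CPM in A673 and 4.45, 4.2 and 3.99 CPM in TC-71 (5.43), with 28.6% of its bases shared. On the TC-71 side were IL11, a cytokine (-4.05), EGR2, an immediate early factor at 151.5, 148.1 and 151.3 CPM against 10.1, 9.59 and 8.83 CPM (-3.98), and MYC (-2.11). The list therefore did not move as a block. Without the genes that share 10% or more of their bases the counts were 12 and 3 of 25.

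Receptor tyrosine kinases were at least 4-fold higher in A673 for 13 of 41 and in TC-71 for 4 (41.5%, against 30.9% of all genes). Their median was 1.16. RET, the receptor of GDNF family ligands, read 53.8, 53.4 and 52.2 CPM in A673 against 0, 1 and 1 reads, a ratio of 2178 (603 to 17990). ROR2, a WNT5A receptor, read 38.6, 36.2 and 36.7 CPM against 1 read in all. KDR, a VEGF receptor, was at least 54-fold higher in A673, and FLT1, another, had a ratio of 592 (164 to 4892).

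TC-71 had more of FLT4, the lymphatic VEGF receptor, at 12.7, 12 and 12.4 CPM against 0.848, 1.11 and 1.21 CPM (-3.55). It also had more FLT3 (-4.31), MST1R (-4.63) and ERBB3 (-2.79). IGF1R, the receptor Ewing cells are known to depend on, read 66.9, 68.8 and 67.3 CPM in A673 and 162, 156 and 166 CPM in TC-71 (-1.25), under the limit.

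Growth factor ligands gave 17 large differences toward A673 and 6 toward TC-71 of 33 tested (69.7%, against 30.9% of all genes). Their median was 2.16. BMP7 read 6.93, 6.34 and 6.85 CPM in A673 and 0 in TC-71, at least 59.4-fold higher, whereas BMP2 read 10.4, 10.2 and 10.2 CPM in TC-71 against 5, 5 and 4 reads (-7.73). The 2 lines thus read different members of the BMP family. TGFA, an EGF receptor ligand, was higher in TC-71 at 25, 22.8 and 24.5 CPM against 0.209, 0.245 and 0.182 CPM (-6.82), while EGFR itself read 0.818, 0.98 and 0.697 CPM in A673 and 0 in TC-71. Of the 23 large ligand differences, 14 were repeated with siFLI1, against 79.4% over all genes.

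WNT pathway genes divided, 8 higher in A673 and 9 in TC-71 of 37 tested (45.95%, against 30.9% of all genes). Their median was 0.32, and the counts were 5 and 8 of the 31 with under 10% of bases shared. LEF1, a nuclear partner of beta-catenin, read 24.7, 27.6 and 25.4 CPM in TC-71 against 0.13, 0.167 and 0.111 CPM in A673 (-7.55, edgeR adjusted p = 1.05e-34). SFRP5, a secreted antagonist, read 0.616, 0.514 and 0.575 CPM in TC-71 and 0 in A673. RNF43, which removes Frizzled receptors, had a ratio of 174 toward TC-71 (58.4 to 854), with 69% of its bases shared. LGR5, an R-spondin receptor, read 41.8, 44.4 and 42.2 CPM in A673 against 1.13, 0.794 and 0.703 CPM (5.604), and NKD2, an antagonist inside the cell, gave 5.70. 

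**Figure D4:**
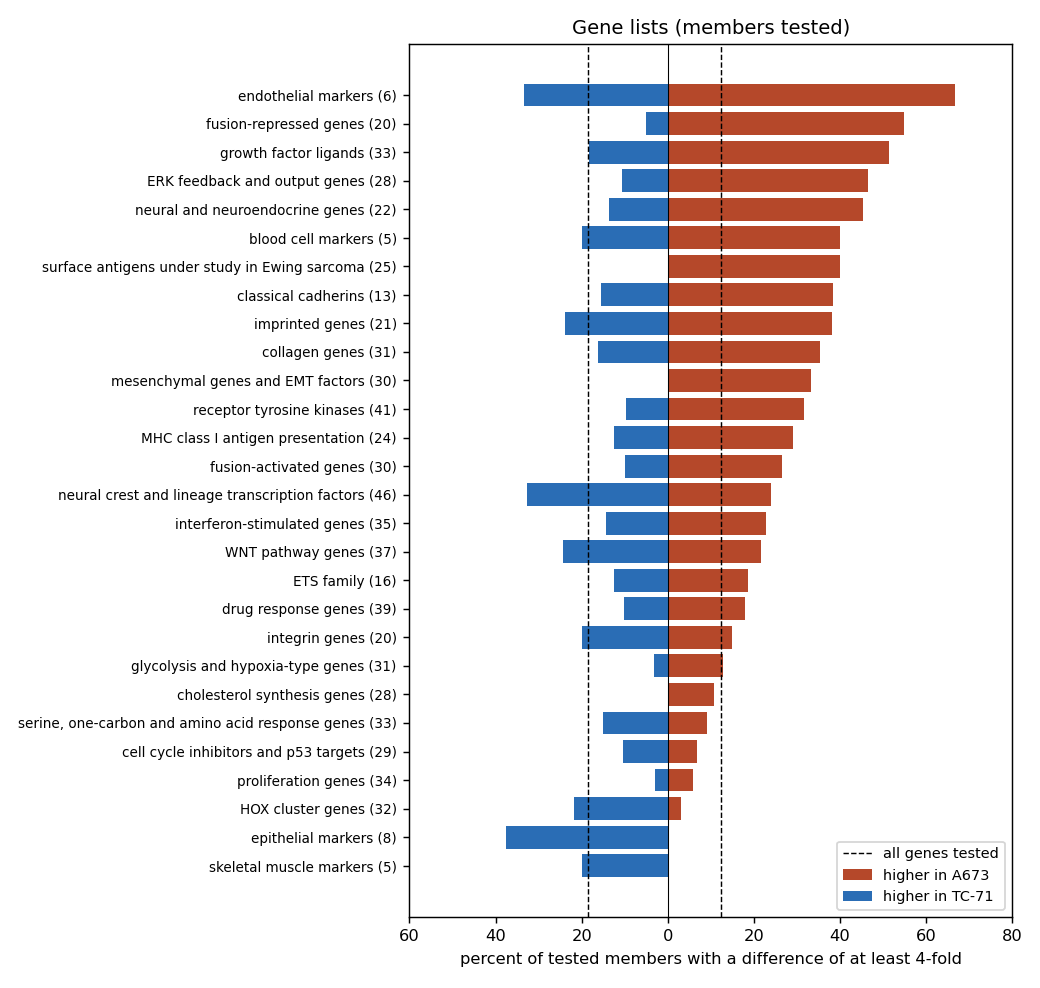
Percent of tested members of each gene list with a difference of at least 4-fold, A673-higher to the right and TC-71-higher to the left, with the number tested in brackets. Dashed lines mark the same shares over all genes tested, 12.3% and 18.5%. Mesenchymal, fusion-repressed and ligand genes are among the lists that lie beyond the A673 line. HOX genes pass the TC-71 line alone, and lineage factors, among other lists, pass both lines.

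Antigen presentation genes gave 7 large differences toward A673 and 3 toward TC-71 of 24 tested (41.7%, against 30.9% of all genes). Their median was 1.19. B2M, the light chain of MHC class I, read 1194, 1165 and 1206 CPM in A673 and 286.4, 279.6 and 250.4 CPM in TC-71 (2.13, edgeR adjusted p = 1.07e-27). NLRC5, the class I transactivator, read 10.8, 9.87 and 10.4 CPM against 0.923, 0.887 and 0.767 CPM (3.60). The heavy chains named here went both ways: HLA-C was higher in A673 by less than 4-fold (0.87), and HLA-B in TC-71 at 136.3, 133.7 and 135.9 CPM against 6.22, 6.22 and 5.68 CPM (-4.49).

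HLA genes are near-copies that vary between people, and 47.3% of the exon bases of HLA-B are shared, so these heavy chain values are uncertain. Among members with under 10% shared, 3 of 12 were higher in A673 and none in TC-71. Interferon-stimulated genes gave 8 and 5 of 35 (37.1%, against 30.9% of all genes) with a median of 0.10. OAS1, an RNA sensor, read 24.1, 23.2 and 24.6 CPM in A673 against 4, 1 and 4 reads (7.75), and HERC5, a ligase of ISG15, was higher in TC-71 (-5.03).

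At 4-fold, 40% of surface antigens under study in Ewing sarcoma differed, against 30.9% of all genes tested. They were higher in A673 for 10 of 25 and in TC-71 for none. Besides NCAM1, EGFR and CD44 these included PROM1, a stem cell marker (4.83), and EPHA2, an ephrin receptor at 199.8, 188.7 and 192.5 CPM against 6.63, 5.28 and 4.98 CPM (5.10). CD276, which encodes B7-H3, read 102, 100 and 99.3 CPM in A673 and 32.8, 35.3 and 34.3 CPM in TC-71 (1.56), and ST8SIA1, the GD3 synthase, was low in both lines and higher in TC-71 (-1.93).

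Among 39 drug response genes, 7 were higher in A673 and 4 in TC-71, a share of 28.2% against 30.9% of all genes tested. ABCB1, the efflux pump P-glycoprotein, read 7.52, 7.24 and 6.96 CPM in TC-71 against 1 read in A673, a ratio of 2180 (390 to 86250). AKR1C2 and AKR1C3 (9.64 and 9.71), reductases of steroids and carbonyl drugs, were higher in A673, as were MT1E, a metallothionein with close copies, and ABCC3, an efflux pump at least 14.3-fold higher with 0 reads in TC-71. SLFN11, which sensitises cells to DNA damage, gave 0.05 (edgeR adjusted p = 0.164) at 212, 215 and 209 CPM in A673 and 202, 201 and 210 CPM in TC-71.

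Growth and metabolism lists were read against the 30.9% of large differences over all genes tested and the 12.8% in the stricter set of expressed coding genes. Proliferation genes gave 2 large differences toward A673 and 1 toward TC-71 of 34 tested, a share of 8.82% (exact binomial interval 1.86% to 23.7%), and MKI67 gave 0.04 (edgeR adjusted p = 0.295). Cholesterol synthesis genes gave 3 and 0 of 28 (10.7%), with CYP51A1 (4.20) sharing 74% of its bases. Glycolysis genes gave 4 and 1 of 31 (16.1%), with ALDOA (5.51) sharing 54%.

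Cell cycle inhibitors and p53 targets gave 2 and 3 of 29 (17.2%, against 30.9% of all genes). CDKN2A, which encodes the p16 and ARF proteins and has 15.3% of its bases shared, had no read in A673 and 7, 5 and 5 reads in TC-71, while its neighbour MTAP, a methionine salvage enzyme, was read in both lines at 51.9, 55.8 and 54.4 CPM in A673 and 9.23, 10 and 8.53 CPM in TC-71 (2.55).

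Serine, one-carbon and amino acid genes gave 3 large differences toward A673 and 5 toward TC-71 of 33 (24.2%, against 30.9% of all genes). Their median was -0.06, and the counts were 1 and 5 of the 25 with under 10% of bases shared. The paralogs ALDH1L1 and ALDH1L2, which oxidise formyl-tetrahydrofolate in the cytosol and in mitochondria, went opposite ways. ALDH1L1 read 30.2, 29 and 29.3 CPM in A673 against 0, 1 and 0 reads, a ratio of 2416 (434 to 95440), and ALDH1L2 read 110.2, 107.6 and 114 CPM in TC-71 against 6.42, 6.75 and 6.34 CPM (-4.09). CHAC1, a glutathione-degrading enzyme of the stress response (-3.61), and ASS1, which makes argininosuccinate (-3.40), were higher in TC-71. The medium differs between the lines, and its part in these values was not tested.

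Markers of other cell types were summed in each library. Of 10 endothelial markers, 6 were tested, 4 at least 4-fold higher in A673 and 2 in TC-71 (100%, against 30.9% of all genes). Their summed level was 44.8 to 45.2 CPM in A673, most of it EMCN at 36.6, 37 and 37.8 CPM, and 5.84 to 6.39 CPM in TC-71. VWF had no read in TC-71 and reads in only 1 A673 library, and PECAM1 was at 0.667 CPM or below. Blood markers summed to 30.3 to 33.1 CPM in A673, with IKZF1 at 16.8, 17 and 16.1 CPM, and to 4.28 to 5.08 CPM in TC-71, while CD3E and HBB had at most 1 read in any library. Of 5 blood markers tested, 2 were at least 4-fold higher in A673 and 1 in TC-71 (60%, against 30.9% of all genes).

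Epithelial markers summed to 354.4 to 381.4 CPM in A673, most of it KRT18 with 17.1% of its bases shared, and 155.4 to 155.9 CPM in TC-71, with CDH1 at 4 reads or fewer. Most tested members went the other way: of 8 tested, 2 were called higher in A673 and 6 in TC-71. At 4-fold the counts were 0 and 3 (37.5%, against 30.9% of all genes), and the median was -1.22. Skeletal muscle markers summed to 59.3 to 61.3 CPM in A673 and 185.4 to 199.7 CPM in TC-71, and ACTA1 was the 1 large difference (-4.08, 16.6% shared). With any 1 A673 library left out, ACTA1 fell under the low-count filter and was not tested. Mitochondrial genes took 6.98% to 7.56% of the A673 counts and 9.98% to 10.6% of the TC-71 counts. The part of any of these in the other results was not tested.

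The siFLI1 libraries of the same lines give another comparison, made from other samples with the same counters. There, 6073 of 19258 genes (31.5%) differed by at least 4-fold, 11.2% toward A673 and 20.3% toward TC-71. Of the 1010 expressed coding genes with a large difference in siNeg, 695 (68.8%) differed by at least 4-fold in the same direction with siFLI1, 350 of the 546 higher in A673 and 345 of the 464 higher in TC-71. Another 17 were called in the opposite direction. The medium, counter and depth of each line are the same in both comparisons.

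For some fusion-responsive genes the gap between the lines narrowed with siFLI1, and for other genes it widened or turned. TNC went from 5.83 with siNeg to 2.76 with siFLI1 (interaction -3.02, edgeR adjusted p = 2.95e-25) and NPY1R from 3.25 to -0.02 (-3.22, edgeR adjusted p = 6.58e-23). SULF1 widened from 2.00 to 5.69 (3.73, edgeR adjusted p = 6.80e-19), and ETS1 turned from -1.06 to 2.92. These are examples and give no count of either kind.

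**Figure D5:**
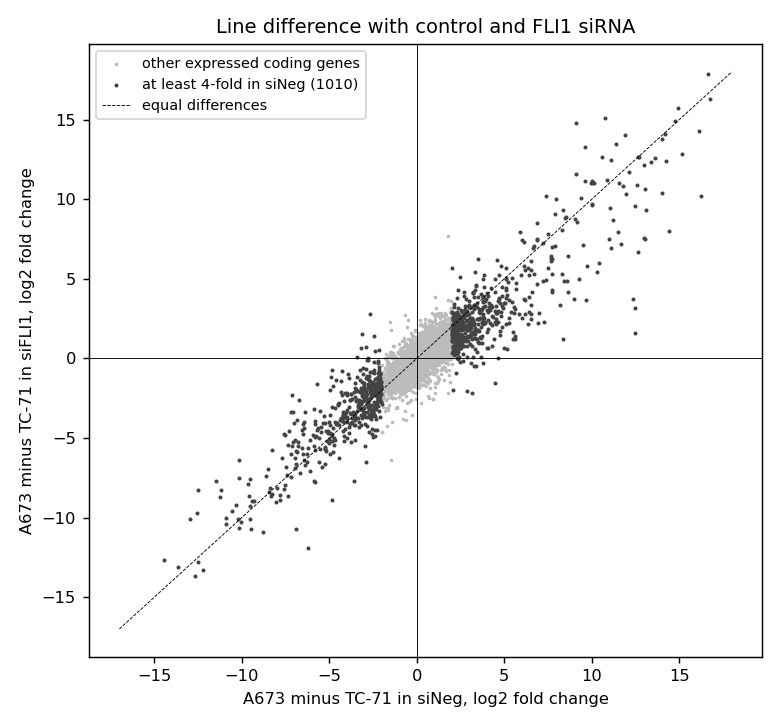
Line difference of each expressed protein-coding gene, A673 minus TC-71 as log2 fold change, with siNeg (x axis) and with siFLI1 (y axis), each from 3 libraries per line. Dark points are the 1010 genes with at least a 4-fold difference in siNeg, of which 695 were again at least 4-fold in the same direction, and the dashed line marks equal differences.

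TC-32, the third line, grown in the medium of TC-71 and counted as A673 was, was set beside the pair on a scale common to all 18 libraries. Of the 1010 genes, its siNeg mean lay within 2-fold of A673 alone for 469 (46.4%) and of TC-71 alone for 22.9%. It was nearer to A673 for 349 of the 546 genes higher in A673 and for 305 of the 464 higher in TC-71. Of the 15 top genes of TC-71, none reached 10 CPM in TC-32 and 12 stayed under 1 CPM, whereas 9 of the 15 top genes of A673 reached 10 CPM there. COL4A1 read 114, 109 and 116 CPM in TC-32 and SALL1 292, 283 and 292 CPM, while COL1A2 was under 1 CPM.

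Differences were spread over all autosomes. The median log2 fold change of the tested genes was 0.47 on chromosome 5, 0.39 on chromosome 11 and 0.35 on chromosome 21, and it was -0.39 on chromosome 17 and -0.24 on chromosome 14. In the expressed coding genes, chromosomes 5 and 11 again gave the highest medians, 0.63 and 0.60, and chromosome 17 the lowest, -0.09, against 0.28 over the whole set. Chromosome 21 (0.45) lay below chromosomes 9, 7, 16 and 12 there, and chromosome 14 (0.20) above several others. Copy number was not measured, and its part in these medians was not tested.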

How the data were processed

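RNA-seq of the 3 A673 and 3 TC-71 siNeg libraries was analysed from the authors' deposited gene tables. The A673 values are expected counts from a table the authors named for RSEM, deposited unnormalized, and the TC-71 values are deposited whole counts from a table named for Subread. The line of the TC-71 columns comes from the table's name. Per the submitters' processing notes the tools were cutadapt 4.4, STAR 2.7.3, featureCounts, Subread 2.0.3 and limma 3.38.3 on GRCh38. The RSEM version, the annotation release and the strand setting are not given in the sources used here. Per the labels' protocols, the libraries were made with a stranded mRNA kit.

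Rows were matched by Ensembl identifier, 58381 in each table. GENCODE 44 lacked 582 identifiers, 2900 rows lay on X or Y, and 54899 rows were kept. Expected counts were rounded. The libraries were filtered with filterByExpr, scaled by TMM and tested with edgeR 4.0.16 (glmQLFit, glmQLFTest) in R 4.3.3, with Benjamini-Hochberg adjustment over 18530 genes and no covariate. A large difference is an adjusted p below 0.05 with at least 4-fold. Exon overlap was computed from GENCODE 44 on either strand. A gene at 0 in one line is given as a bound against 3 counts per library, and 1 to 3 reads in all as a ratio with a counting interval at 95% confidence. Intervals and floors cover counting error only. The siFLI1 libraries were fitted the same way on their own, and the interaction of line and siRNA came from 1 edgeR model of 12 libraries, added after seeing the data. The stricter gene set was also counted under every alternative after seeing the data. TC-32 levels were compared as log2(CPM + 1).

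Counts were simulated with 200 changed genes, drawn only from genes above a minimum mean count. The test for A673 siNeg against TC-71 siNeg recovered 88% of their 2-fold changes, with 18396 genes tested. It recovered 98% of 8-fold changes, with 18438 genes tested. Recovery of changed genes with lower counts was not simulated. In the 1 draw made for each fold, 7.37% and 6.67% of the calls were false, above the 5% set by the threshold. The simulation gave all other genes equal means and no counter difference, whereas 89.1% of genes were called in the data. These rates therefore need not hold for the data. Replicates correlated at 0.986 to 0.9943 in log2 CPM, and every pair differed by more than sampling noise, with 2.63 to 7.66 for chi-square per degree of freedom.

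Named genes were the 15 in each direction with the largest ratio of mean CPM in the stricter set, the lower line raised to 3 counts per library where under it, up to 4 members per direction of each gene list, defining members, FLI1, EWSR1, ETS1, TNS3, and 3 genes on each side of the 4-fold limit. A few others, such as members that were not large, were picked from the lists after their values were seen. The members and lists were chosen with earlier results of these data known. Alternatives were RLE scaling, library size alone, other filters, DESeq2 1.42.0, limma-voom (limma 3.58.1), a replicate block, thinning, a counter check, glmTreat, length and GC trends, X and Y genes kept, and leaving out each library.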

Additional observations from a re-analysis of the deposited data

Results flagged for a closer look

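Among the genes named with a large difference in siNeg, 3 had the opposite, called difference between the lines with siFLI1, and the interaction of line and siRNA was tested for each in 1 edgeR model of 12 libraries. NUPR1, a stress-response cofactor, was higher in A673 with siNeg (log2 fold change 2.697) and lower with siFLI1 (-1.23), with an interaction of -3.88 (edgeR adjusted p = 2.27e-11). It read 4.14, 3.38 and 2.697 CPM in A673 and 0.445, 0.374 and 0.703 CPM in TC-71 with siNeg, against 12.2, 15.5 and 15.6 CPM and 33.9, 32.5 and 34.6 CPM with siFLI1, and 16.5% of its exon bases are shared.

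CDA, the cytidine deaminase that inactivates cytarabine and gemcitabine, was lower in A673 with siNeg (-2.997) and higher with siFLI1 (2.105), with an interaction of 5.14 (edgeR adjusted p = 2.67e-11). Its level was low throughout, at 0.0898 to 0.157 CPM in A673 and 0.821 to 1.07 CPM in TC-71 with siNeg. ELF3, an epithelial ETS factor with 18.5% of its bases shared, was lower in A673 with siNeg (-2.16) and higher with siFLI1 (2.09), with an interaction of 4.30 (edgeR adjusted p = 5.49e-07). It stayed under 1 CPM in TC-71 with either siRNA and read 1.37, 1.66 and 1.47 CPM in A673 with siFLI1.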

How the results depend on the processing

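Medium, counter, depth and line cannot be separated here, so a small difference between A673 and TC-71 has no reading of its own. Of 3165 values of 185 named genes under the alternatives, 3160 kept their direction and their side of the adjusted p threshold of 0.05. The 4-fold limit was not part of this check, and 89.1% of all genes tested passed the adjusted p threshold. EWSR1 reversed to -0.0125 with library size alone and to -0.108 with length and GC trends removed, and FLI1, ETS1 and EWSR1 were no longer called by glmTreat against 2-fold. The cause was not tested. With glmTreat, 8489 genes were called in place of 16505. With no low-count filter, 9046 of 31074 genes were large in place of 5719. DESeq2 gave 17935 called and 7755 large, and limma-voom 16520 and 5743.

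Limiting the fit to genes with whole expected counts and no shared exon base, a set of 4920, gave 4353 called, 2058 large (41.8%), 345 large in the stricter set (20.5% of its 1687 genes, 44.3% of them higher in A673) and 2252 large with siFLI1. In that set the large share was 57.1% for fusion-activated genes, 83.3% for neural genes, 60% for receptor tyrosine kinases, 91.7% for ligands, 100% for antigen presentation, 50% for drug response and for glycolysis, and 0% for ETS family, cholesterol, proliferation, muscle and blood genes, where few members were left. It was also 0% for muscle markers after thinning and without any 1 of the A673 replicates, against 20% of 5, since ACTA1 was then not tested. With library size alone, 33.7% of all large differences were higher in A673, against 39.9% with TMM, and 40% of all calls, against 50.6%.

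Without 1 library, the genes called ranged from 15256 to 16899, large differences from 4945 to 6196, those in the stricter set from 1004 to 1022, and those with siFLI1 from 5476 to 6532. With the replicate number as a block, 16434 genes were called, 5729 were large, 1011 in the stricter set, and 6087 with siFLI1. Same-numbered libraries showed little shared deviation (correlations of 0.0123, 0.00905 and -0.00565), and not every library correlated best with its own number. With 3 libraries per line, these values cannot show whether the numbers pair the libraries. The depth of TC-71 limits statements on absence, since 3 reads are worth 0.105 to 0.152 CPM there.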
